A study of Drosophila melanogaster with 72 samples.

Results

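The genes described here encode the proteins of the mitochondrial ribosome. They were taken as every Drosophila melanogaster gene whose FlyBase symbol begins with mRpL or mRpS. This gave 73 genes, 47 named for the large (mRpL) and 26 for the small subunit (mRpS). The subunit of a member is read from its symbol throughout, and the place of each protein in the ribosome was not checked. All 73 were rows of each of the 3 deposited count tables, which hold 23932, 13925 and 13925 features. By ribosomal protein nomenclature 46 of them belong to families shared with bacteria and 27 occur in mitochondrial ribosomes alone. The 92 genes named RpL or RpS, which encode the cytosolic ribosome, were followed beside them.

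The mitochondrial ribosome translates the few mRNAs of the mitochondrial genome, which encode core subunits of the respiratory chain and of the ATP synthase. Its proteins are encoded in the nucleus, made on cytosolic ribosomes and imported into the organelle, where they join RNAs made from mitochondrial DNA. Cytosolic ribosomal protein mRNAs carry a 5′ terminal oligopyrimidine tract through which the kinase complex mTORC1 sets their translation, and 4E-BP, encoded by Thor in flies, represses cap-dependent initiation when mTORC1 is low.

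Whole female flies were ground, and each powder gave 3 poly(A)-selected libraries, from total RNA and from the monosome (1 ribosome) and polysome (several ribosomes) fractions of a sucrose gradient. At 15 d, Lpp[TS]>Lsp2 and Lpp[TS]>Rheb, in which by fly notation a line carrying Lpp[TS] drives Lsp2 or Rheb, were set against Lpp[TS]>w1118, with 2 pools of flies a genotype. At the same age, Thor[2];Lsp2[A10] was set against Lsp2[A10], and Thor[2];Lsp2[B14] against Lsp2[B14], with 3 pools each, so that all 4 genotypes carry 1 of the 2 Lsp2 alleles. Lsp2[A10] and Lsp2[B14] were also sampled at 2 to 3 d, with 3 pools each. Which Lsp2 allele is the control is not in the labels, nor when or where the Lpp[TS] element is active. They give no sign that pools of a genotype were reared apart, so p-values measure the spread between these pools, and their batch entry repeats genotype and fraction, so that batch and genotype cannot be told apart.

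The 72 libraries held 15.3 M to 39.7 M counts (M for mega) in total RNA, 5.07 M to 21.3 M in monosomes and 3.13 M to 31.3 M in polysomes. Levels are in CPM, the count of a gene scaled to the library's total and TMM factor, and ratios are differences of log2 CPM between fractions of a pool. The levels of the targeted genes Lsp2, Rheb and Thor, and all levels summed over lists, are scaled to the library total alone, without the TMM factor. A gene is called changed at an adjusted p under 0.05 (edgeR quasi-likelihood test, Benjamini-Hochberg over all genes tested), and log2 changes are given with their standard error. Lsp2 RNA averaged 7150 ± 761 CPM in Lpp[TS]>Lsp2 and 2420 ± 219 CPM in Lpp[TS]>Rheb, against 4.86 ± 0.527 CPM in Lpp[TS]>w1118 (SD, n = 2 each). Rheb RNA averaged 923 ± 62 CPM in Lpp[TS]>Rheb and 126 ± 0.351 CPM in Lpp[TS]>w1118. Thor RNA averaged 294 ± 60.9 CPM in libraries labelled Thor[2];Lsp2[A10] and 253 ± 35.4 CPM in Lsp2[A10], and 291 ± 29.3 CPM in libraries labelled Thor[2];Lsp2[B14] and 272 ± 20.9 CPM in Lsp2[B14] (SD, n = 3 each). In the fit, which is TMM-scaled, Thor was called higher in Thor[2];Lsp2[A10], by 0.42 ± 0.14 on the log2 scale (adjusted p 0.0166), and was not called in the B14 background, at 0.24 ± 0.14 (adjusted p 0.15). Thor[2] below names the label of those libraries. The Lpp[TS]>Lsp2 pools stood apart from each other, since in total RNA replicate 1 held 59.5 CPM summed over 12 markers of male accessory gland and testis, where replicate 2 held 0.0892, and the 18 ovary and eggshell markers summed to 2302 and 3710 CPM. The male markers summed to 0.0298 and 0.162 CPM in the Lpp[TS]>Rheb pools, against 9.51 and 23.7 CPM in the Lpp[TS]>w1118 pools, and total RNA of the allele pools held at most 1.39. Among the allele fractions the monosome library of Thor[2];Lsp2[A10] replicate 1 held 37.7 CPM.

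Of the 73 genes, 72 passed the expression filter in every fit. The remaining one, mRpL53, had 0 counts in all 72 libraries. In the BDGP6.54 annotation its exons, on 2R at 13954195 to 13955664 (plus strand), lie wholly inside exons of AGO1 and CG33155. Exons of 43 members overlap another gene, in mRpL53 and mRpS24 over more than 50% of their length. The labels do not say whether counting used strand, so reads from the shared stretches cannot be assigned to a member or its neighbour. The members lie on all major chromosome arms, 12 each on 2L and 2R, 17 on 3L, 21 on 3R and 11 on X. Their longest annotated transcripts are short, with a median of 783 bases (327 to 2078) against 871 for the cytosolic ribosomal protein genes and 1700 for all protein-coding genes of the allele tables.

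Levels per kilobase of transcript were compared over the 12 total RNA libraries of the allele genotypes at 15 d. The highest means belonged to 3 genes with small subunit symbols and bacterial relatives. They were mRpS21 at 129 CPM per kilobase (54.0 to 249.5 over the 12 libraries, median 123), mRpS7 at 128 (85.6 to 174.8, median 126.5) and mRpS18A at 109 (69.8 to 150.1, median 108.9). The lowest belonged to the large subunit proteins mRpL21, at 21 CPM per kilobase (12.1 to 34.6), mRpL48, at 23.6 (15.5 to 33.8), and mRpL13, at 33.3 (20.2 to 46.2). Neighbours in each of these triplets overlapped in range, while the lowest triplet lay below all 12 values of the highest. Exons of mRpS21 overlap CG8870 over 48.0% of their length, and those of mRpL13 overlap CG10602 on the same strand over 35.2%.

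Most member mRNAs had a polysome-to-total ratio above that of the median gene. Monosomes also held a larger share of them than total RNA did. In Lsp2[A10] at 15 d the members summed to 2682 to 2929 CPM in total RNA, 5503 to 5718 CPM in monosomes and 6118 to 7822 CPM in polysomes. The polysome-to-total ratio thus does not by itself tell polysomes from monosomes. In the same 12 pools the mean log2 polysome-to-total ratio, relative to the median gene, was highest for mRpL13, at 2.70 ± 0.41 (SD, n = 12), mRpL52, at 2.59 ± 0.39, and mRpS16, at 2.59 ± 0.36. mRpL52 occurs in mitochondrial ribosomes only, and the other 2 have bacterial relatives. These 3 overlapped one another in range. At the other end stood mRpS31 at −0.57 ± 0.46, mRpL37 at −0.46 ± 0.29 and, far below all others, mRpS5.

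mRpS5, a small subunit protein whose bacterial relative lines the path by which mRNA enters the ribosome, had a mean log2 polysome-to-total ratio of −3.81 ± 0.52 (SD, n = 12), with a range from −4.34 to −2.67. No other member went below −1.15 in its lowest pool. Its total RNA level was among the highest, at 95.3 CPM per kilobase (rank 5 of 72), from 2148 to 4662 counts a library. In the same pools it had 29 to 240 counts in polysomes and 46 to 166 in monosomes. In the Lpp[TS] lines it had 2661 to 5947 counts in total RNA, 565 to 1110 in polysomes and 284 to 706 in monosomes. At 2 to 3 d it had 1237 to 3828 counts in total RNA, 88 to 124 in polysomes and 7 to 62 in monosomes. Its transcript was thus counted in total RNA at one of the higher levels of the group while both gradient fractions held little of it. Its gene lies on 3L at 24537236 to 24543534, plus strand, with 3 exons and a longest transcript of 1422 bases, and overlaps no other annotated exon.

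**Figure D1:**
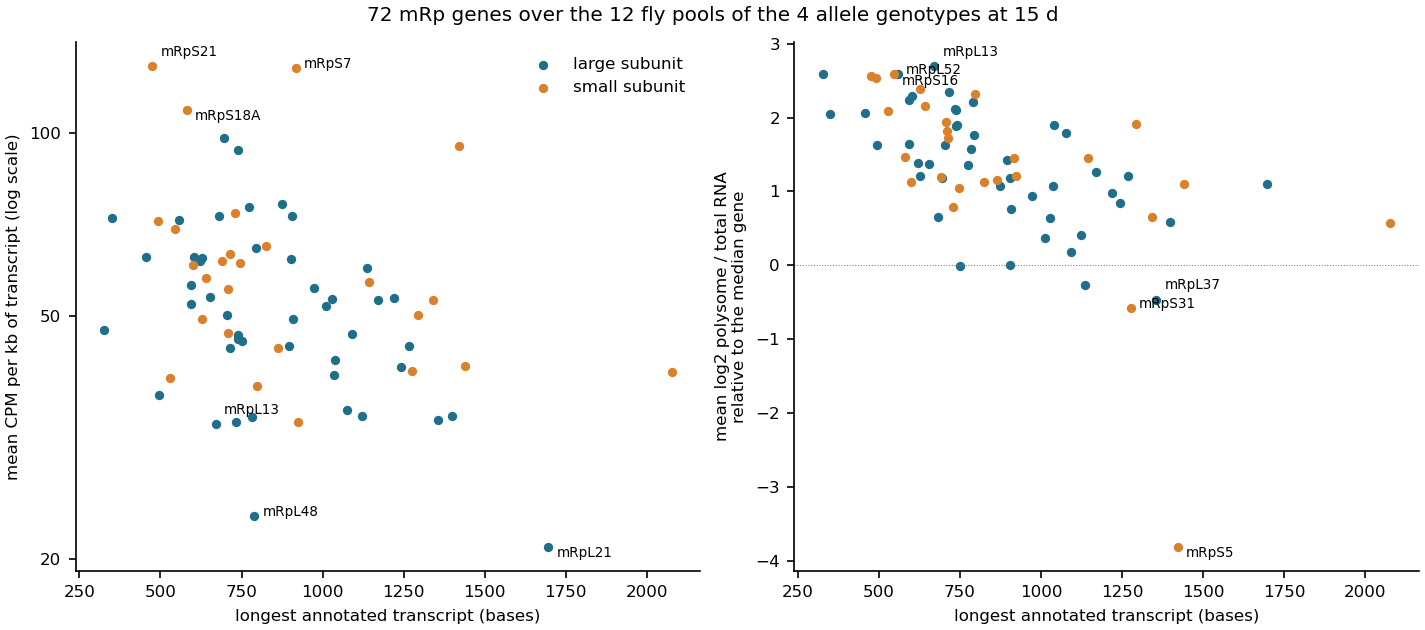
Left, mean total RNA level per kilobase (CPM per kilobase, log scale) and right, mean log2 polysome-to-total ratio relative to the median gene, each against the length of the longest transcript (bases) for the 72 counted members in the 12 allele pools at 15 d. Points are members, coloured by subunit, and mRpS5 sits alone at −3.81 in the right panel although its level per kilobase is 95.3. The level in the left panel is divided by the length it is plotted against.

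Member length moved with the polysome-to-total and polysome-to-monosome ratios. Across the 72 members Spearman's rho with transcript length was −0.66 for the polysome-to-total ratio and −0.41 for the polysome-to-monosome ratio. For the level per kilobase it was −0.38. That level is itself divided by transcript length, so its rho cannot tell whether levels moved with length. These values are a description over members that share their libraries. Short member mRNAs thus stood higher in polysomes relative to total RNA than long ones. The part of length in the values of single members was not tested.

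Over all 24 pools the median member stood above the median gene in its polysome-to-total ratio, and above the median cytosolic ribosomal protein gene. In the Lpp[TS] pools the median member was 0.17 to 0.84 log2 units above the median gene, while the cytosolic genes were at −1.29 to −0.35. In the allele pools at 15 d the median member was at 0.76 to 2.22 and the cytosolic genes at −0.14 to 1.35. At 2 to 3 d the median member was at 1.05 to 1.92 and the cytosolic genes at 0.45 to 0.74. In the polysome-to-monosome ratio the median member lay closer to the median gene, at −0.17 to 0.30 in the pools at 2 to 3 d. It was at 0.16 to 0.99 in the allele pools at 15 d and at 0.04 to 0.40 in the Lpp[TS] pools.

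**Figure D2:**
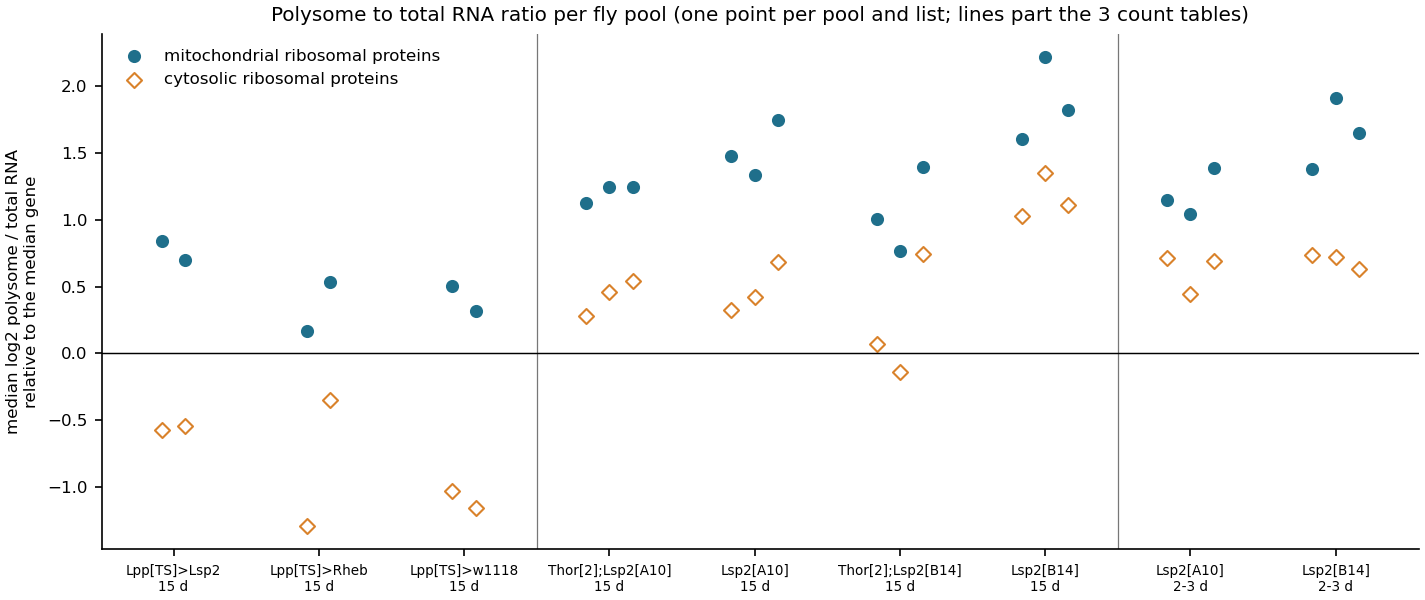
Median log2 polysome-to-total ratio relative to the median gene, for mitochondrial (mRp) and cytosolic (Rp) ribosomal protein genes, in each of the 24 pools, grouped by genotype and age. In each pool the mRp median lies above 0 and above the Rp median, by 0.43 to 1.54 log2 units.

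The largest differences of the series in these genes followed the Thor[2] label. In total RNA 63 of 72 members were called higher and 1 member was called lower in Thor[2];Lsp2[A10], set against Lsp2[A10], where 34.4% of all 10354 genes tested were called higher and 32.3% lower. The median log2 change of the members was 0.75 (−0.29 to 1.64), against 0.04 over all genes. In Thor[2];Lsp2[B14] against Lsp2[B14], 68 of 72 were called higher and none lower, where the shares of all genes were 35.2% higher and 34.0% lower, and the median change was 0.92 (−0.14 to 2.14). The 2 comparisons share no library, and 62 members were called higher in both. Of the 85 cytosolic ribosomal protein genes tested, 83 were called higher in each comparison, with medians of 0.99 and 1.21. The summed level of the members was 3591 to 4022 CPM in Thor[2];Lsp2[A10] and 2682 to 2929 CPM in Lsp2[A10], and 3716 to 4368 CPM in Thor[2];Lsp2[B14] and 2310 to 2847 CPM in Lsp2[B14]. In whole flies a change of cell numbers and a change of RNA per cell cannot be told apart.

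The largest rises were in small proteins of the large subunit. mRpL34 (327 bases, 2R at 16098948 to 16099337, plus strand), whose bacterial relative is one of the smallest ribosomal proteins, had 23.3, 23.1 and 19.6 CPM in Thor[2];Lsp2[A10], against 7.28, 7.41 and 6.42 CPM in Lsp2[A10]. In the other allele it had 32.6, 30.4 and 17.9 CPM in Thor[2];Lsp2[B14], against 8.04, 4.62 and 5.73 CPM in Lsp2[B14]. All 3 Thor[2] libraries lay above all 3 of their controls with either allele. The log2 changes were 1.64 ± 0.23 (adjusted p 2.53e-05, edgeR) in the A10 and 2.14 ± 0.23 (adjusted p 3.63e-06, edgeR) in the B14 background.

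mRpL36 (495 bases, 3L at 8124584 to 8125132, minus strand), another small protein of the bacterial set, had 26.5, 27.3 and 25.4 CPM in Thor[2];Lsp2[A10], against 10.2, 9.06 and 9.49 CPM in Lsp2[A10]. It had 34.2, 31.0 and 21.6 CPM in Thor[2];Lsp2[B14], against 9.74, 6.76 and 9.23 CPM in Lsp2[B14]. Again no Thor[2] library overlapped a control, and the log2 changes were 1.46 ± 0.17 (adjusted p 6.58e-06) and 1.76 ± 0.17 (adjusted p 2.32e-06). mRpL42 (593 bases, 2R at 10066650 to 10067242, plus strand), which has no bacterial relative, had 50.0, 50.6 and 46.3 CPM in Thor[2];Lsp2[A10], against 17.3, 18.4 and 15.3 CPM in Lsp2[A10]. Its change was 1.53 ± 0.13 (adjusted p 8.73e-07), the most precise of the 3 named rises. mRpL33 (349 bases, X at 4321764 to 4322231, minus strand) had 43.9, 41.1 and 31.0 CPM in Thor[2];Lsp2[B14], against 13.5, 9.24 and 12.4 CPM in Lsp2[B14]. Its change was 1.73 ± 0.15 (adjusted p 1.83e-06), without overlap.

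The 1 called fall was mRpL37 (1356 bases, 3R at 10782563 to 10784092, minus strand), a protein of mitochondrial ribosomes only. It had 45.0, 39.5 and 37.6 CPM in Thor[2];Lsp2[A10], against 48.1, 49.4 and 52.1 CPM in Lsp2[A10], a change of −0.29 ± 0.09 (adjusted p 0.00962). The 2 groups did not overlap, and their nearest values were 45.0 and 48.1 CPM.

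Members of known special roles followed the group to different degrees. mRpL12, the protein of the flexible stalk that contacts elongation factors, had 77.7, 80.5 and 70.4 CPM in Thor[2];Lsp2[A10], against 64.7, 57.1 and 53.5 CPM in Lsp2[A10], a change of 0.38 ± 0.12 (adjusted p 0.0108). With B14 its change was 0.76 ± 0.12 (adjusted p 6.67e-05). mRpL44, which has a fold like that of RNase III, changed by 0.55 ± 0.10 (adjusted p 0.000251) and 0.70 ± 0.10 (adjusted p 3.35e-05). mRpL55 changed by 0.76 ± 0.18 (adjusted p 0.00193) and 0.93 ± 0.18 (adjusted p 0.000386). mRpS29, a GTP-binding protein of the death-associated protein 3 family, had 64.3, 61.1 and 54.8 CPM in Thor[2];Lsp2[A10], against 59.3, 57.7 and 58.5 CPM in Lsp2[A10], and was not called at 0.04 ± 0.09 (adjusted p 0.709). With B14 it was called at 0.28 ± 0.09 (adjusted p 0.0112). mRpS5 was called in neither background, at 0.20 ± 0.20 (adjusted p 0.388) and 0.11 ± 0.20 (adjusted p 0.627).

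**Figure D3:**
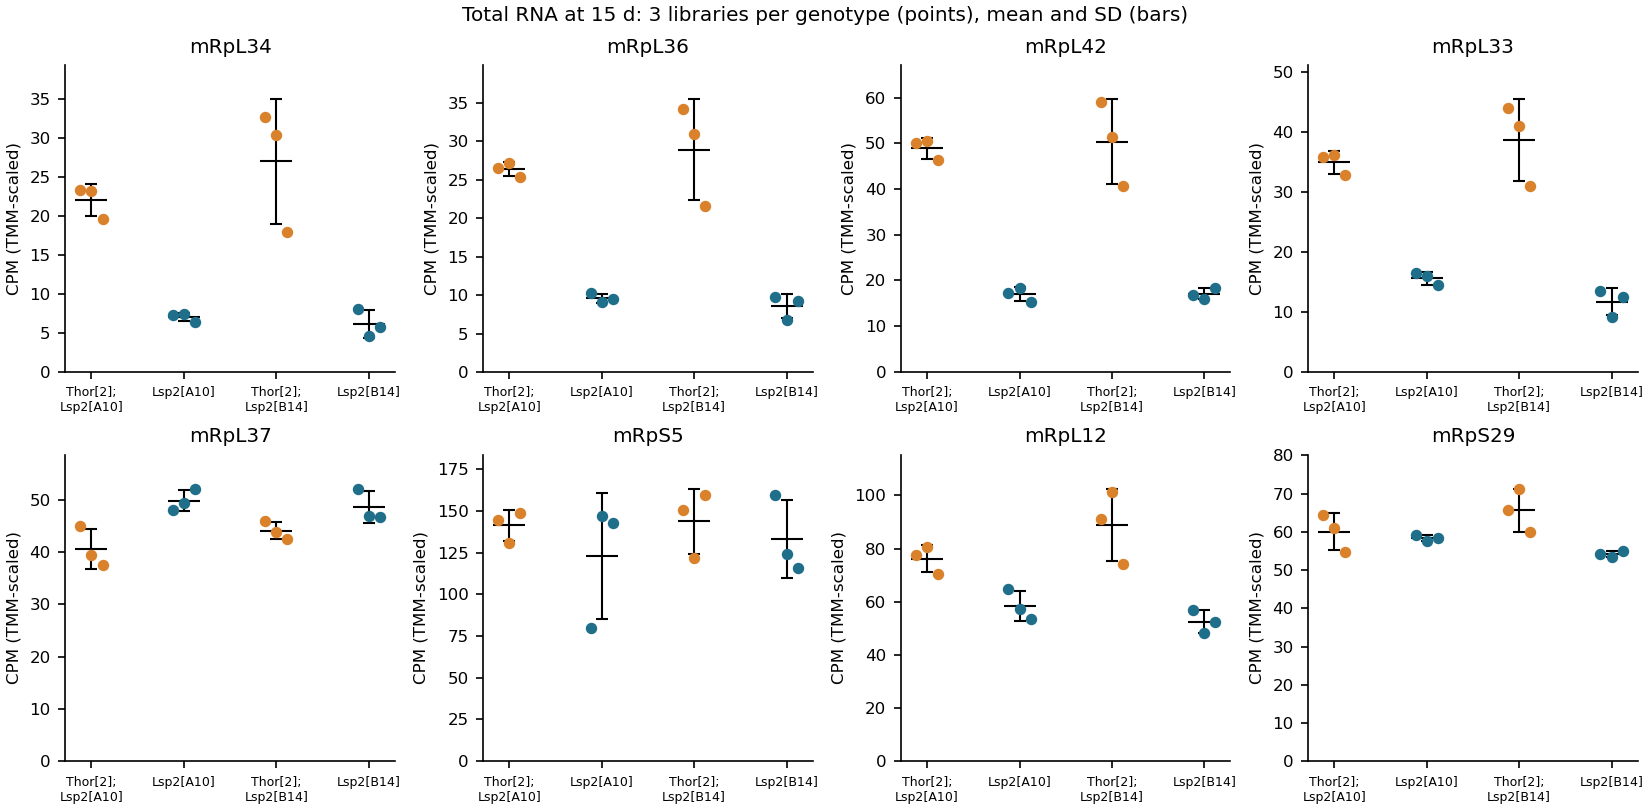
Total RNA level (CPM, TMM-scaled) in each of the 12 allele libraries at 15 d for 8 members, with Thor[2] genotypes left of their controls, points for libraries, dashes for means and error bars for the SD (n = 3). mRpL34, mRpL36, mRpL42 and mRpL33 separate the genotypes without overlap, mRpL37 runs the other way in the A10 background, and mRpS5 overlaps between groups.

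Both subunits and both evolutionary classes moved this way. In the A10 background 43 of 46 large subunit genes rose and 1 fell (median 0.77), and 20 of 26 small subunit genes rose (median 0.68). In the B14 background 45 of 46 and 23 of 26 rose, with medians of 0.93 and 0.87. Of the 46 genes with bacterial relatives 42 rose in the A10 background (median 0.75), and of the 26 mitochondria-specific genes tested 21 rose and 1 fell (median 0.74). Across the 72 members the changes in the 2 backgrounds had a Pearson correlation of 0.95, as a description across genes. The difference between the backgrounds, the interaction of Thor[2] and Lsp2 allele, was called in 0 of 72 members by edgeR (5 at an unadjusted p under 0.05) and in 0 by DESeq2, where 4.10% of all genes were called. The median interaction was −0.22, a smaller rise with A10 than with B14 in 64 of the 72 genes, and 1 member was called without Thor[2];Lsp2[B14] replicate 3. The smallest p was that of mRpL38, at −0.38 ± 0.12 (adjusted p 0.105).

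These total RNA changes went with transcript length across the transcriptome. Over 10345 genes with a known length, Spearman's rho between length and the Thor[2] change was −0.69 in the A10 and −0.80 in the B14 background, and over the 72 members −0.55 and −0.56. The 1756 tested genes with transcripts of at most 1000 bases had median changes of 0.95 and 1.03, and the longer genes −0.13 and −0.16. The 50 members of at most 1000 bases had medians of 0.82 and 1.03, and the 22 longer members 0.49 and 0.67. When each library was adjusted for its trend over transcript length, a choice made after seeing the data, 15 members were called higher and 23 lower in the A10 background, with a median change of −0.10, where 27.4% of all genes were called higher and 31.3% lower. With B14, 18 members were called higher and 17 lower, with a median of 0.08, where the shares of all genes were 22.8% and 24.5%. Under that adjustment mRpL34 changed by 0.10 (adjusted p 0.518) and 0.53 (adjusted p 0.0038), mRpL42 by 0.47 in the A10 background and mRpL37 by −0.70. With the adjustment the members' median thus changed sign in the A10 background. In the B14 background it shrank to 0.08 without changing sign. The part of length in the result was not tested. Summed markers also moved with the label. Yolk protein RNA stood at 28120 to 30490 CPM in Thor[2];Lsp2[A10] and 14440 to 23660 CPM in Lsp2[A10], the 12 muscle markers at 3390 to 4025 CPM and 2261 to 2646 CPM, and the 9 midgut markers at 7095 to 8428 CPM and 5178 to 5336 CPM. In the B14 background yolk protein RNA stood at 20170 to 21510 CPM in Thor[2];Lsp2[B14] and 18180 to 20050 CPM in Lsp2[B14], muscle at 3067 to 3416 CPM and 2584 to 3016 CPM, and midgut, which overlapped, at 8016 to 8770 CPM and 5871 to 8133 CPM. The adult fat body markers overlapped, at 2170 to 2423 CPM in Thor[2];Lsp2[A10] and 2184 to 3142 CPM in Lsp2[A10], and at 2177 to 2479 CPM in Thor[2];Lsp2[B14] and 2412 to 3274 CPM in Lsp2[B14]. The 18 ovary and eggshell markers overlapped, at 11680 to 15110 CPM in Thor[2];Lsp2[A10] and 10700 to 14060 CPM in Lsp2[A10]. They also overlapped in the B14 background, at 10230 to 12610 CPM in Thor[2];Lsp2[B14] and 10940 to 13180 CPM in Lsp2[B14]. The part of these markers in the member changes was not tested.

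**Figure D4:**
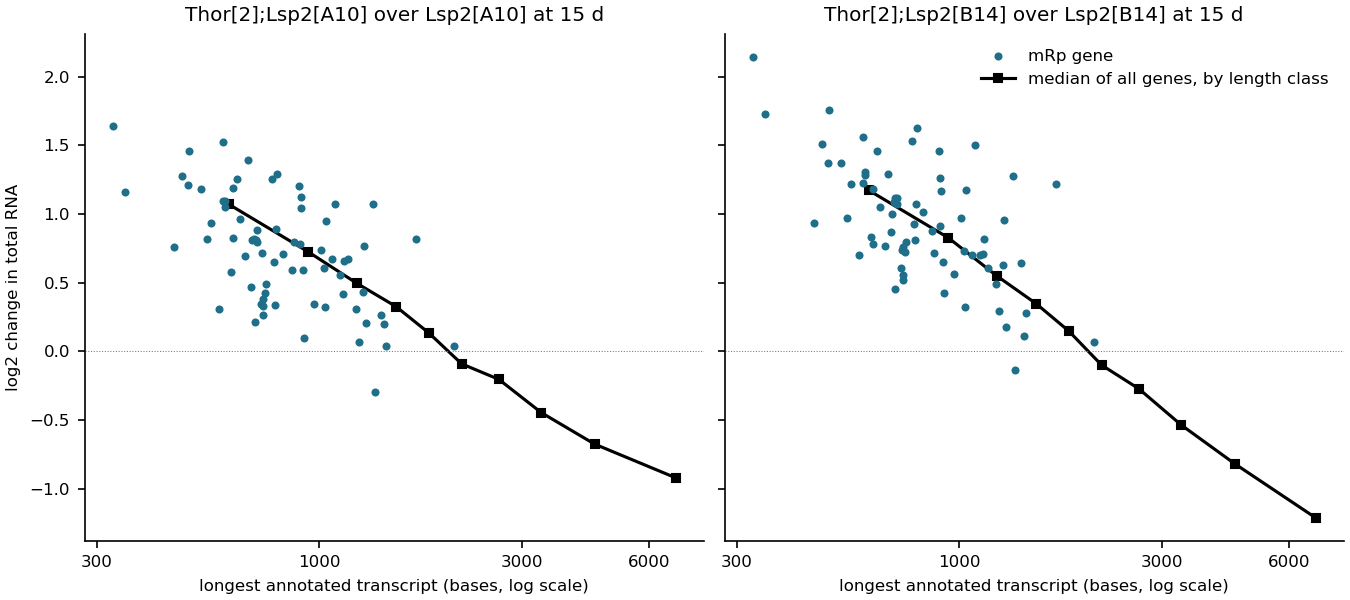
Log2 change of total RNA with Thor[2] in the A10 (left) and B14 (right) backgrounds against the length of the longest transcript (bases, log scale), for the 72 members (points) and as medians of all genes in 10 length classes (line). Members follow the downward line, and short members sit highest, with mRpL34 at 1.64 and 2.14.

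The polysome-to-total ratio of the members moved the other way. Total RNA is the denominator of this ratio, so a rise in total RNA by itself lowers it. Here and below, opposite changes of the 2 readouts are therefore not independent results. In Thor[2];Lsp2[A10] against Lsp2[A10], 20 members were called lower and 3 higher, where 23.0% of all 11062 genes were called lower and 18.0% higher, and the median change was −0.32 (all genes −0.06). The members' share called lower was thus near that of all genes. In Thor[2];Lsp2[B14] against Lsp2[B14], 46 were called lower and 0 higher (DESeq2 called 46 members in all), where the shares of all genes were 23.3% and 20.3%, and the median change was −0.66 (all genes 0.00). Of the members 19 were called lower in both backgrounds. The B14 count fell to 23 without Lsp2[B14] replicate 2 and to 27 without Thor[2];Lsp2[B14] replicate 2. For the 88 cytosolic ribosomal protein genes the medians were 0.01 in the A10 background, with 3 called higher and 6 lower, and −0.81 in the B14 background, with 69 called lower.

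mRpL17, whose bacterial relative sits near the exit of the peptide tunnel, fell most in the A10 background. Its log2 polysome-to-total ratios were −0.62, −1.01 and −0.60 in Thor[2];Lsp2[A10], against 0.90, 0.62 and 1.18 in Lsp2[A10], a change of −1.65 ± 0.24 (adjusted p 7.50e-06). In the B14 background they were −0.53, −0.95 and −0.55 in Thor[2];Lsp2[B14], against 0.88, 1.63 and 1.04 in Lsp2[B14], a change of −1.85 ± 0.23 (adjusted p 2.06e-06). All 6 Thor[2] pools were below 0 and all 6 control pools above it. Exons of mRpL17 overlap CG34263 over 23.6% of their length.

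mRpL54, a mitochondria-specific protein of the large subunit, had ratios of −0.12, −0.36 and −0.12 in Thor[2];Lsp2[A10], against 1.15, 1.17 and 1.44 in Lsp2[A10], a change of −1.47 ± 0.19 (adjusted p 2.26e-06). mRpS14, a small subunit protein with a bacterial relative, had 1.39, 1.52 and 1.68 in Thor[2];Lsp2[A10], against 2.39, 2.54 and 3.26 in Lsp2[A10], a change of −1.26 ± 0.26 (adjusted p 0.000499). With B14 it had 1.32, 1.16 and 2.07 in Thor[2];Lsp2[B14], against 3.09, 3.91 and 3.31 in Lsp2[B14], a change of −1.94 ± 0.26 (adjusted p 5.35e-06). Neither gene's groups overlapped. mRpL36, among the largest rises in RNA, fell in its ratio by 1.58 ± 0.29 on the log2 scale in the B14 background (adjusted p 0.000167).

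The 3 rises in the A10 background were in mRpS29, mRpS9 and mRpL1, whose transcripts of 1440, 1293 and 1220 bases are long for this group. The ratios of mRpS29 were 1.397, 1.33 and 1.28 in Thor[2];Lsp2[A10], against 0.54, 0.71 and 0.85 in Lsp2[A10], a change of 0.63 ± 0.17 (adjusted p 0.00372). The pools did not overlap, and its total RNA level had not been called in this comparison. mRpS9 changed by 0.53 ± 0.19 (adjusted p 0.0290), with 25.1% of its exon length shared with ArgRS-m, and mRpL1, the protein of the L1 stalk, by 0.41 ± 0.15 (adjusted p 0.0358). In the B14 background mRpS29 changed by 0.32 ± 0.17 and was not called (adjusted p 0.118).

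Large subunit genes made up 14 of the 20 falls in the A10 and 32 of the 46 in the B14 background. These shares were near that of large subunit genes in the whole group, 47 of 73. Across the 72 members the 2 backgrounds had a Pearson correlation of 0.91. The interaction with the Lsp2 allele was called in 0 members by edgeR (2 at an unadjusted p under 0.05) and 0 by DESeq2, as in 0% of all genes. Its median was 0.33, positive in 67 of 72 members, against 0.82 for the cytosolic genes. mRpS17 had the smallest p, at 0.69 ± 0.32 (adjusted p 0.529).

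The ratio changes also went with length, with the sign turned round. Spearman's rho was 0.52 and 0.64 over all genes and 0.30 and 0.43 over the members in the A10 and B14 backgrounds. Genes of at most 1000 bases had medians of −0.74 and −0.85, and longer genes 0.08 and 0.16. The short members were at −0.45 and −0.76, and the long ones at −0.16 and −0.40. After adjustment of each library for length, 24 members were called higher and 5 lower in the A10 background, with a median change of 0.26, where 16.1% of all genes were called higher and 18.0% lower. With B14, 17 members were called higher and 9 lower, with a median of 0.03, where the shares of all genes were 10.8% and 16.1%. Under it mRpL17 still changed by −1.14 and −1.28, mRpL54 by −0.79, mRpS14 by −0.61 and −1.20, and mRpS29 by 0.96. Here the sign of the members' median changed with that adjustment in both backgrounds, while these 4 genes kept their direction.

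The polysome-to-monosome ratio changed in few members with Thor[2]. In the A10 background 1 member was called higher and 0 lower, where 0.164% and 0.0947% of 11619 genes were called, with a median change of 0.30 and 20 members at an unadjusted p under 0.05. In the B14 background 0 were called higher and 1 lower, where the shares of all genes were 0.327% and 0.112%, with a median of −0.03 and 8 members at an unadjusted p under 0.05. DESeq2 called 2 and 1 members. The call in the A10 background was mRpL37, which had log2 ratios of 1.44, 1.36 and 1.29 in Thor[2];Lsp2[A10], against 0.38, 0.15 and 0.50 in Lsp2[A10], a change of 1.02 ± 0.22 (adjusted p 0.0397). The call in the B14 background was mRpL17, at 0.26, −0.16 and −0.14 in Thor[2];Lsp2[B14] and 1.04, 1.25 and 0.76 in Lsp2[B14], a change of −1.01 ± 0.23 (adjusted p 0.0431). Neither gene's pools overlapped. The A10 count was 16, all higher, without Thor[2];Lsp2[A10] replicate 3, where 1.73% of all genes were called higher, 3 without Lsp2[A10] replicate 3 and 0 without any 1 of the other 4 pools, and the B14 count was 0 without any 1 pool other than Thor[2];Lsp2[B14] replicate 1. The interaction was called in 0 members by edgeR (11 at an unadjusted p under 0.05) and 0 by DESeq2, as in 0% of all genes, with a median of 0.37. mRpL37 had its smallest p, at 1.24 ± 0.31 (adjusted p 0.219).

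Other genes of mitochondrial gene expression were called in both directions under Thor[2]. Such calls were common over all genes too, with 34.4% called higher and 32.3% lower in total RNA in the A10 background. With B14 the shares of all genes were 35.2% and 34.0%. The part of length in the changes given here was not tested. Of 20 translation and transcription factors tested, 8 rose and 5 fell in total RNA in the A10 background, and 11 rose and 4 fell in the B14 background. tko, the mitochondrial S12 protein under an older name, rose by 1.45 ± 0.13 (adjusted p 1.6e-06) and 1.35 ± 0.13 (adjusted p 2.6e-06), and its polysome-to-total ratio changed by −0.92 ± 0.23 and −0.996 ± 0.23. The elongation factors mEFTu1, at 0.74 ± 0.09 and 0.75 ± 0.09, and mEFTs, at 0.66 ± 0.09 and 0.58 ± 0.09, rose as well. PolrMT, the mitochondrial RNA polymerase, fell by 0.96 ± 0.13 and by 1.04 ± 0.13 on the log2 scale, and its polysome-to-total ratio rose by 0.99 ± 0.19 and 1.06 ± 0.19. Of 18 mitochondrial aminoacyl-tRNA synthetase and amidotransferase genes, 3 rose and 8 fell with A10, and 4 rose and 6 fell with B14. Of the 13 mRNAs that these ribosomes translate, only mt:CoII was called in total RNA, at 0.87 ± 0.29 (adjusted p 0.017) and 0.78 ± 0.29 (adjusted p 0.027). Their summed level spanned 12760 to 35520 CPM within Lsp2[A10] alone.

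**Figure D5:**
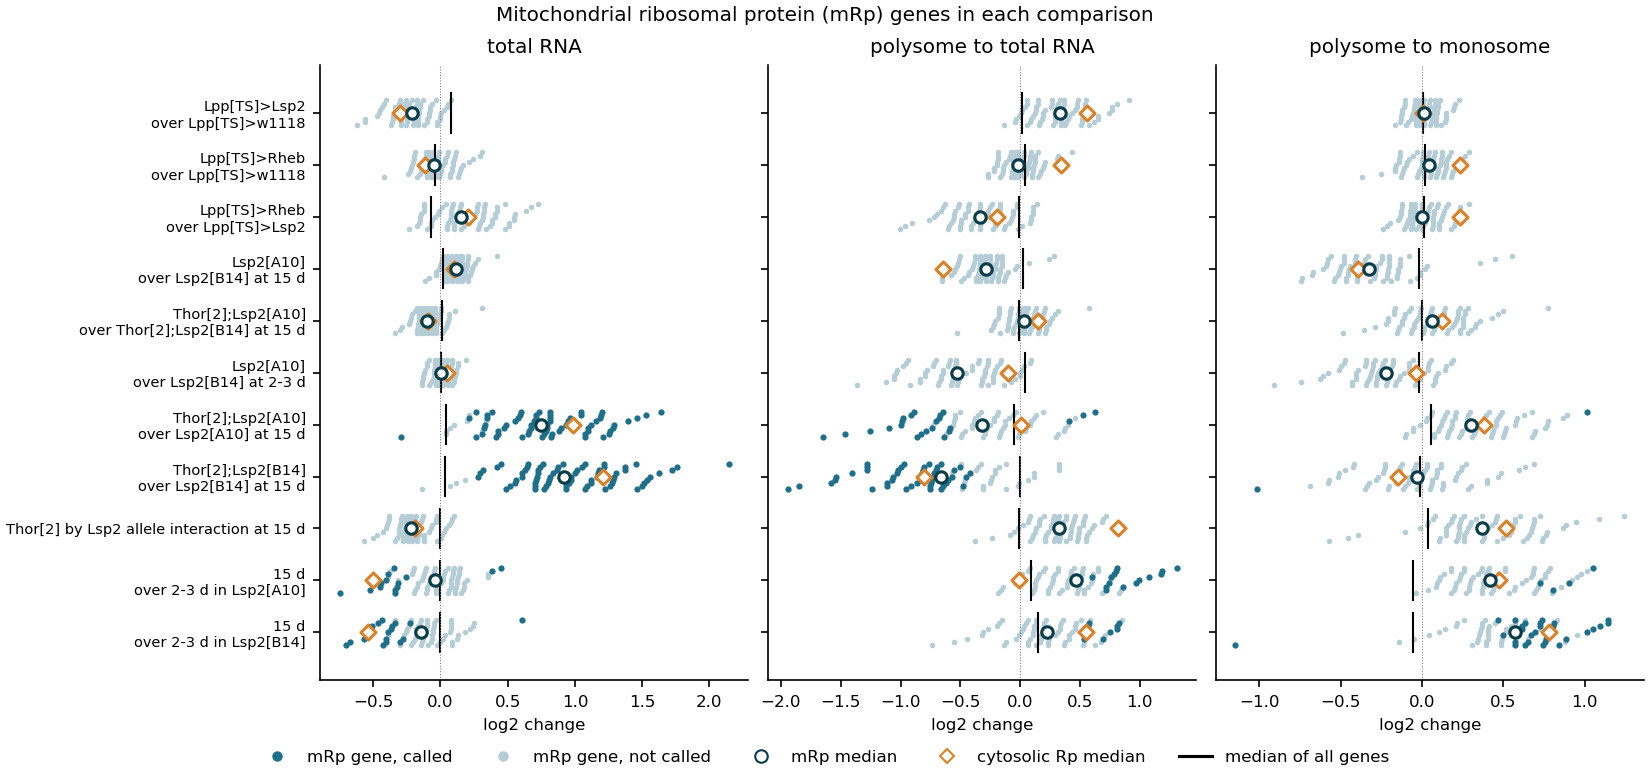
Log2 change of each of the 72 members (points) in the 11 comparisons, for total RNA, polysome-to-total and polysome-to-monosome ratios (panels left to right), with called members dark, and the medians of the members, of the cytosolic Rp genes and of all genes marked. Total RNA medians of 0.75 and 0.92 with Thor[2] stand out, and the ratio medians lie at −0.32 and −0.66 in the same comparisons.

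Between the Lsp2 alleles the members differed little in RNA. At 15 d, in Lsp2[A10] over Lsp2[B14], edgeR called 0 of 72 members (3 at an unadjusted p under 0.05) and DESeq2 0, where 2.21% of 10354 genes were called. The median change was 0.12, with 67 of 72 above 0. mRpL33, with the smallest p, had 16.6, 15.95 and 14.4 CPM in Lsp2[A10], against 13.5, 9.24 and 12.4 CPM in Lsp2[B14], a difference of 0.42 ± 0.15 (adjusted p 0.270) without overlap. With Thor[2] in both genotypes 0 members were called by either tool (2 at an unadjusted p under 0.05 in edgeR), where 4.16% of genes were, and the median was −0.10. Without Thor[2];Lsp2[B14] replicate 3, 1 member was called. There mRpL54 had 80.0, 83.3 and 74.5 CPM in Thor[2];Lsp2[A10], against 69.0, 63.9 and 58.9 CPM in Thor[2];Lsp2[B14], a difference of 0.31 ± 0.12 (adjusted p 0.209). At 2 to 3 d 0 members were called by either tool and 0 reached an unadjusted p under 0.05, where 0.332% of 9952 genes were called, and the median was 0.01. The smallest p was that of mRpL1, at 0.10 ± 0.08 (adjusted p 1.0), with overlapping libraries.

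The polysome-to-total ratio was lower in Lsp2[A10] than in Lsp2[B14] for most members at either age. At 15 d 0 members were called by either tool (9 at an unadjusted p under 0.05 in edgeR), as in 0% of all genes, with a median of −0.29 and 3 members above 0. mRpL27 had ratios of 1.38, 1.56 and 2.12 in Lsp2[A10], against 2.15, 2.72 and 2.27 in Lsp2[B14], a difference of −0.65 ± 0.23 (adjusted p 0.544). The nearest pools of mRpL27 were 2.12 and 2.15. The cytosolic genes had a median of −0.64, and 69 of 88 had an unadjusted p under 0.05. With Thor[2] in both, 0 members were called by either tool (1 at an unadjusted p under 0.05), where 0.0904% of genes were, and the median was 0.03. mRpS28 had the smallest p there, at −0.53 ± 0.22 (adjusted p 0.437).

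At 2 to 3 d the median member ratio differed by −0.53 between Lsp2[A10] and Lsp2[B14] (all genes 0.04), and 67 of 72 were at or below 0. edgeR called 0 members, where 0.0687% of 10185 genes were called, with 35 at an unadjusted p under 0.05, and DESeq2 called 8, all lower, where it called 2.06% of all genes lower. With the fly pool as a block, 38 members were called lower, where 7.39% of all genes were. Without Lsp2[B14] replicate 1 there were 40, where 6.30% of all genes were called lower. mRpL52, with the smallest p, had ratios of 2.57, 2.43 and 2.71 in Lsp2[A10], against 3.09, 3.46 and 3.46 in Lsp2[B14], a difference of −0.78 ± 0.21 (adjusted p 0.0957) without overlap. The pools did not overlap for 42 members, all lower in Lsp2[A10], where 14.7% of all genes were lower without overlap and 19.3% higher. Genes with bacterial relatives had a median of −0.56 and mitochondria-specific genes one of −0.30, while the cytosolic genes were at −0.11. Length went with this difference, with a rho of 0.70 over the members and 0.47 over all genes, and after the length adjustment the median was −0.16 with 1 member called lower. Its part was not tested.

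The polysome-to-monosome ratio showed no call between alleles. In Lsp2[A10] over Lsp2[B14] at 15 d 0 members were called by edgeR (17 at an unadjusted p under 0.05) and DESeq2, as in 0% of all genes, with a median of −0.33. mRpL46, a mitochondria-specific protein, had ratios of 0.07, 0.09 and 0.55 in Lsp2[A10], against 0.91, 0.85 and 0.82 in Lsp2[B14], a difference of −0.61 ± 0.21 (adjusted p 0.593). With Thor[2] in both, 0 members were called by either tool (4 at an unadjusted p under 0.05), where 0.250% of genes were. mRpL37 had ratios of 1.44, 1.36 and 1.29 in Thor[2];Lsp2[A10], against 0.78, 0.46 and 0.45 in Thor[2];Lsp2[B14], a difference of 0.78 ± 0.22 (adjusted p 0.0673). With the fly pool as a block 1 member was called higher, where 2.33% of all genes were, and without Thor[2];Lsp2[A10] replicate 3 there were 2, where 3.44% were. At 2 to 3 d 0 members were called by either tool (2 at an unadjusted p under 0.05), as in 0% of all genes, with a median of −0.22. mRpS25 had the smallest p, at −0.91 ± 0.28 (adjusted p 1.0).

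Age was compared by joining the 15 d and 2 to 3 d tables, so that age and table cannot be told apart, and CPM in these comparisons carry their own scaling. In total RNA of Lsp2[A10] 2 members were called higher and 12 lower at 15 d than at 2 to 3 d, where 20.8% of 10224 genes were called higher and 23.8% lower, with a median of −0.04. In Lsp2[B14] 1 was called higher and 19 lower, where the shares of all genes were 18.3% and 19.8%, with a median of −0.15. All 12 falls in Lsp2[A10] were among the 19 in Lsp2[B14]. The cytosolic genes fell more widely, 64 and 72 of 85, with medians of −0.50 and −0.54. The counts of members ranged from 8 to 15 without 1 pool in Lsp2[A10], with 8 without replicate 2 or 3 of either age, and were 10 without Lsp2[B14] replicate 2 at 15 d or replicate 3 at 2 to 3 d.

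mRpL42, which rose with Thor[2], had 17.8, 18.3 and 15.4 CPM in Lsp2[A10] at 15 d, against 24.3, 31.3 and 30.8 CPM at 2 to 3 d, a change of −0.75 ± 0.15 (adjusted p 0.00134). In Lsp2[B14] it had 17.4, 16.3 and 18.4 CPM at 15 d, against 24.3, 25.1 and 35.1 CPM at 2 to 3 d, a change of −0.70 ± 0.15 (adjusted p 0.00261). No library of one age reached those of the other. mRpL9, which has a bacterial relative, changed by −0.52 ± 0.11 (adjusted p 0.00249) in Lsp2[A10] and by −0.57 ± 0.11 (adjusted p 0.00191) in Lsp2[B14]. mRpS29 changed by −0.25 ± 0.07 (adjusted p 0.00703) in Lsp2[A10] and −0.30 ± 0.07 (adjusted p 0.00359) in Lsp2[B14], without overlap in either. mRpL28 changed by −0.45 ± 0.11 in Lsp2[A10] (adjusted p 0.00501). mRpL27, whose bacterial relative reaches toward the peptidyl transferase centre, changed by −0.68 ± 0.13 in Lsp2[B14] (adjusted p 0.00157).

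The rises with age were in mRpL54 and mRpS23 in Lsp2[A10] and in mRpS5 in Lsp2[B14]. mRpL54 had 29.1, 32.4 and 29.8 CPM at 15 d, against 20.1, 23.6 and 22.9 CPM at 2 to 3 d, a change of 0.45 ± 0.13 (adjusted p 0.0147). mRpS23 had 33.8, 38.7 and 39.4 CPM at 15 d, against 28.9, 29.6 and 27.0 CPM at 2 to 3 d, a change of 0.39 ± 0.09 (adjusted p 0.00526). Both were without overlap. mRpS5 had 164.8, 125.9 and 116.0 CPM at 15 d, against 70.8, 90.2 and 105.3 CPM at 2 to 3 d in Lsp2[B14], a change of 0.61 ± 0.20 (adjusted p 0.0322).

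The 12 muscle markers moved with age, at 2261 to 2646 CPM in Lsp2[A10] at 15 d and 10810 to 12010 CPM at 2 to 3 d, and at 2584 to 3016 CPM in Lsp2[B14] at 15 d and 12980 to 13760 CPM at 2 to 3 d. The adult fat body markers were at 2412 to 3274 CPM in Lsp2[B14] at 15 d and 1357 to 1490 CPM at 2 to 3 d, and overlapped in Lsp2[A10], at 2184 to 3142 CPM and 1906 to 2217 CPM. The midgut markers were at 5178 to 5336 CPM in Lsp2[A10] at 15 d and 3472 to 5169 CPM at 2 to 3 d, and overlapped in Lsp2[B14], at 5871 to 8133 CPM and 5688 to 6986 CPM. The part of these markers in the member changes was not tested. Length-adjusted, the median member change was 0.09 in Lsp2[A10] and −0.03 in Lsp2[B14], and members were called in both directions in each allele. Under it the 9 changes of mRpL42, mRpL9, mRpL28, mRpL27, mRpL54, mRpS23 and mRpS5 given for age kept their sign and their call.

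The polysome-to-total ratio was higher at 15 d in 67 of 72 members in Lsp2[A10] and in 59 in Lsp2[B14]. In Lsp2[A10] 15 were called higher and 0 lower at 15 d (DESeq2 14 in all), where 18.5% of 10514 genes were called higher and 11.1% lower, and in Lsp2[B14] 9 and 0 (DESeq2 10 in all), where the shares were 18.6% and 11.5%. The members' shares were close to or below those of all genes, while their medians were 0.46 and 0.22 against 0.09 and 0.15. With the fly pool as a block 29 members were called higher in Lsp2[A10], where 20.3% of all genes were. In Lsp2[B14] that fit called 16 higher and 1 lower, where 21.6% and 12.3% of all genes were called. The Lsp2[A10] count was 3 without replicate 3 at 15 d or replicate 2 at 2 to 3 d and 7 without replicate 1 at 2 to 3 d. In Lsp2[B14] it was 1 without replicate 2 and 5 without replicate 3 at 15 d, and 5 without replicate 1 and 3 without replicate 3 at 2 to 3 d. The cytosolic genes had medians of −0.01 and 0.55.

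mRpL51, a mitochondria-specific protein, had ratios of 1.104, 1.46 and 1.97 in Lsp2[A10] at 15 d, against 0.17, 0.30 and 0.37 at 2 to 3 d, a change of 1.31 ± 0.35 (adjusted p 0.00844). The small subunit proteins mRpS34 and mRpS33 changed by 1.19 ± 0.39 (adjusted p 0.0256) and 1.18 ± 0.35 (adjusted p 0.0171). In Lsp2[B14] mRpL4, whose bacterial relative lines the peptide tunnel, had ratios of 0.67, 1.20 and 0.93 at 15 d, against 0.04, 0.19 and 0.12 at 2 to 3 d, a change of 0.81 ± 0.19 (adjusted p 0.00291). None of these 4 genes' pools overlapped. mRpS24 changed by 0.83 ± 0.25 (adjusted p 0.0154), with 55.3% of its exon length shared with TBC1d7, and mRpL54 by 0.81 ± 0.23 (adjusted p 0.0104). With the length adjustment the medians of the group changed sign, to −0.09 in Lsp2[A10] and −0.10 in Lsp2[B14], although none of the 6 named genes did.

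The polysome-to-monosome ratio was higher at 15 d for nearly all members. In Lsp2[A10] 4 were called higher and 0 lower, where 3.26% and 1.61% of 10324 genes were called, with a median of 0.42 and 71 of 72 members above 0. In Lsp2[B14] 32 were called higher and 1 lower, where the shares were 14.6% and 17.8%, with a median of 0.57 and 69 above 0. The medians of all genes were −0.05 and −0.06, and those of the cytosolic genes 0.47, with 7 of 87 called higher, and 0.78, with 67 called higher. The block called 25 members higher in Lsp2[A10], where 12.5% of all genes were, and 51 higher and 1 lower in Lsp2[B14], where 20.4% and 23.3% of all genes were. DESeq2 called 19 and 40 members. Its shares of all genes are not given here, so these counts are not read further. Scaled to library totals, 2 members were called higher in Lsp2[A10], where 2.49% of all genes were, and 7 higher and 2 lower in Lsp2[B14], where 7.53% and 30.9% of all genes were. The Lsp2[A10] count was 10 without replicate 1 at 15 d, and 0 without replicate 3 at 15 d or any 1 pool at 2 to 3 d. The Lsp2[B14] count was 11 without replicate 2 at 15 d and 19 without replicate 2 at 2 to 3 d. Length went with the change over all genes, with a rho of −0.56 in each allele, and over members with −0.48 in Lsp2[A10] and 0.05 in Lsp2[B14]. After its adjustment fewer members were called in each allele, in both directions.

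mRpL30 had log2 polysome-to-monosome ratios of 0.30, 0.47 and 1.12 in Lsp2[A10] at 15 d, against −0.42, −0.35 and −0.47 at 2 to 3 d, a change of 1.05 ± 0.25 (adjusted p 0.0242). mRpS24 changed by 0.90 ± 0.23 (adjusted p 0.0335) and the mitochondria-specific mRpS31 by 0.81 ± 0.23 (adjusted p 0.0438). In Lsp2[B14] mRpL20, needed early in the assembly of the bacterial large subunit, had 1.56, 1.79 and 1.38 at 15 d, against −0.01, 0.44 and 0.79 at 2 to 3 d, a change of 1.14 ± 0.27 (adjusted p 0.00319). Neither gene's pools overlapped between ages. mRpL27 changed by 1.14 ± 0.28 (adjusted p 0.00383) and mRpL17 by 1.096 ± 0.22 (adjusted p 0.00109). The fall was mRpS5, at 0.33, −0.08 and −0.70 at 15 d and 1.004, 1.88 and 0.70 at 2 to 3 d, a change of −1.15 ± 0.32 (adjusted p 0.00967) that rests on the low fraction counts given above.

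Over all genes 20.8% were called higher and 23.8% lower in total RNA at 15 d in Lsp2[A10], and 18.3% and 19.8% in Lsp2[B14]. In the polysome-to-total ratio these shares were 18.5% and 11.1%, and 18.6% and 11.5%. Of the 20 mitochondrial translation and transcription factors, 1 was called higher and 4 lower in total RNA in Lsp2[A10], and 0 higher and 2 lower in Lsp2[B14]. Of the same factors 3 were called higher and 0 lower in the polysome-to-total ratio in each allele. Among them the elongation factor mEFTu1 changed by −0.47 ± 0.10 and −0.51 ± 0.10 in total RNA and by 0.48 ± 0.14 and 0.55 ± 0.14 in that ratio. Of the 18 aminoacyl-tRNA synthetase and amidotransferase genes, 6 were called higher and 1 lower in total RNA in Lsp2[A10], and 2 higher and 0 lower in Lsp2[B14], with 1 higher and 1 lower in the polysome-to-total ratio in each allele. Of the mRNAs of the mitochondrial genome 5 in Lsp2[A10] and 6 in Lsp2[B14] rose in total RNA and none fell, and 6 and 5 of 13 rose in the polysome-to-total ratio and none fell, mt:ND4 by 5.82 ± 0.87 and 5.87 ± 0.88. Mitochondrial mRNAs are translated inside the organelle, and what carries them into a cytosolic gradient fraction was not measured.

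In the Lpp[TS] lines, with 2 pools a genotype, no member was called in any readout. In Lpp[TS]>Lsp2 over Lpp[TS]>w1118 total RNA, edgeR called 0 (2 at an unadjusted p under 0.05) and DESeq2 0, where 0.0166% of 12030 genes were called. The median change was −0.21 (−0.62 to 0.08; all genes 0.08), and 5 members were above 0. mRpL17 had 58.9 and 47.8 CPM in Lpp[TS]>Lsp2, against 69.6 and 75.9 CPM in Lpp[TS]>w1118, a difference of −0.45 ± 0.16 (adjusted p 0.908) without overlap. Without Lpp[TS]>Lsp2 replicate 1, the pool with male markers, 38 members were called lower, where 18.5% of all genes were called lower and 18.8% higher, with the lone pool assumed to vary like the other genotypes. That pool, replicate 2, stood apart in total RNA from the other 5 pools of these lines. It held 3710 CPM of ovary and eggshell markers, against 2182 to 2627 CPM in the other 5, 16180 CPM of mRNAs of the mitochondrial genome, against 34080 to 48200 CPM, and 138700 CPM of cytosolic ribosomal protein mRNAs, against 159200 to 189600 CPM. Leaving out replicate 1 did not even out the male markers. They summed to 0.0892 CPM in replicate 2 of Lpp[TS]>Lsp2, against 9.51 and 23.7 CPM in the Lpp[TS]>w1118 pools. The part of these differences in those calls was not tested. The cytosolic genes had a median of −0.30.

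In total RNA of Lpp[TS]>Rheb over Lpp[TS]>w1118 edgeR called 0 members, with 0 at an unadjusted p under 0.05, and DESeq2 0, where 1.53% of genes were called, and the median was −0.05. mRpS29 had the smallest p, with 70.5 and 66.2 CPM in Lpp[TS]>Rheb, against 84.1 and 77.9 CPM in Lpp[TS]>w1118, a difference of −0.25 ± 0.13 (adjusted p 0.490). A fit of these 2 genotypes alone called 2 members, 1 in each direction. In Lpp[TS]>Rheb over Lpp[TS]>Lsp2, edgeR called 0 (9 at an unadjusted p under 0.05) and DESeq2 0, where 0.815% of genes were called, with a median of 0.15. mRpS14 had 47.1 and 43.8 CPM in Lpp[TS]>Rheb, against 35.0 and 27.1 CPM in Lpp[TS]>Lsp2, a difference of 0.55 ± 0.17 (adjusted p 0.291). Without Lpp[TS]>Lsp2 replicate 1, and so resting on the same lone pool, 37 members were called higher and 1 lower, where 23.5% and 23.1% of all genes were called. The 3 comparisons share libraries and are not independent.

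The polysome-to-total ratio gave 0 calls among members by either tool in the 3 Lpp[TS] comparisons, as in 0%, 0% and 0% of 12796 genes. In Lpp[TS]>Lsp2 over Lpp[TS]>w1118 the median was 0.33, with 68 of 72 above 0 and 6 at an unadjusted p under 0.05, against 0.56 for the cytosolic genes. mRpS18C had ratios of 1.66 and 1.65 in Lpp[TS]>Lsp2, against 1.12 and 0.88 in Lpp[TS]>w1118, a difference of 0.65 ± 0.23 (adjusted p 0.862). Without Lpp[TS]>Lsp2 replicate 1, 2 members were called higher, where 195 of 13042 genes were. In Lpp[TS]>Rheb over Lpp[TS]>w1118 the median was −0.02, with 0 at an unadjusted p under 0.05, and mRpL54 had the smallest p, at 0.43 ± 0.30 (adjusted p 1.0). In Lpp[TS]>Rheb over Lpp[TS]>Lsp2 the median was −0.34, with 13 at an unadjusted p under 0.05. mRpL17 had ratios of −0.67 and −0.25 in Lpp[TS]>Rheb, against −0.02 and 0.20 in Lpp[TS]>Lsp2, a difference of −0.54 ± 0.20 (adjusted p 0.517), and 9 members were called lower without Lpp[TS]>Lsp2 replicate 1, where 4.87% of all genes were. Length went with the Lpp[TS]>Lsp2 over Lpp[TS]>w1118 ratio change, with a rho of −0.61 over members and −0.42 over all genes, and adjustment for it left 0 calls and a median of −0.13.

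For the polysome-to-monosome ratio 0 members were called by either tool in any of the 3 comparisons and 0 reached an unadjusted p under 0.05, as in 0%, 0% and 0% of 12524 genes called. The medians were 0.01 for Lpp[TS]>Lsp2 and 0.04 for Lpp[TS]>Rheb, each over Lpp[TS]>w1118, and 0.00 for Lpp[TS]>Rheb over Lpp[TS]>Lsp2. The members with the smallest p were mRpL10, the protein that anchors the stalk, at 0.23 ± 0.18, mRpS24 at 0.29 ± 0.18 and mRpS29 at 0.29 ± 0.17 (adjusted p 1.0 in each). The cytosolic genes had medians of 0.00, 0.24 and 0.24.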

How the data were processed

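Libraries came from 24 pools of whole female flies in 9 genotype and age groups. The authors deposited raw read counts per gene in 3 tables, one for the Lpp[TS] lines, one for the allele genotypes at 15 d and one for those at 2 to 3 d. The submitters' processing notes name fastp 0.23.2, Bowtie2 2.3.4.1, STAR 2.2.1, featureCounts 1.6.0, R 4.2.0 and build BDGP6, and the strand setting and annotation release are not given in the sources used here. Sources record no molecular identifiers and no spike-in, so levels are relative within a library. Positions and transcript lengths are from the BDGP6.54 annotation.

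The counts were tested in R 4.3.3 with edgeR 4.0.16 (TMM scaling, filterByExpr, robust quasi-likelihood fits) and Benjamini-Hochberg adjustment over all genes of a fit, in 11 comparisons by 3 readouts. Total RNA was fitted alone, and each ratio as the interaction of genotype or age with fraction in a joint fit. Ratios per pool used a prior count of 0.5. Levels of targeted genes and sums over lists are CPM of the library total. Ratios of single genes in comparisons are not centred, and those in the ordering of members and the medians per pool are relative to the median gene. The fits were also run on simulated counts with known changes, and the outcome is not given here. Those counts were drawn independently for each library, so that run does not cover fractions that share a pool. Replicates differed by more than sampling noise in all 63 pairs (chi-square per degree of freedom 6.38 to 132).

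Alternatives were DESeq2 1.42.0, other scalings, no filter, only the groups compared, a replicate block, leaving out each pool, and a transcript length offset chosen after seeing the data. Fractions with the same replicate number came from the same powder, per the labels' protocols, so the block in ratio fits is the fly pool. Deviations of its fractions correlated at −0.07 to 0.77 for polysome and total RNA, over 0.1 in 15 of 24 pools. Members and lists were chosen with earlier results of these data known. Genes named in each comparison are the 3 largest called rises and falls, or the smallest p where none was called, with the 3 highest and lowest members by level and ratio, members that failed the filter, and mRpL12, mRpS29, mRpL44, mRpL55 and mRpS5 for their roles.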

Additional observations from a re-analysis of the deposited data

Results flagged for a closer look

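The total RNA of mRpL38, a mitochondria-specific protein of the large subunit (X at 14226289 to 14227949, plus strand), had log2 changes of opposite sign with age in the 2 Lsp2 alleles, and was called in neither. In Lsp2[A10] it had 43.7, 43.1 and 45.0 CPM at 15 d, against 38.5, 42.2 and 42.1 CPM at 2 to 3 d, a change of 0.10 ± 0.07 (adjusted p 0.265, edgeR). In Lsp2[B14] it had 40.0, 36.6 and 38.5 CPM at 15 d, against 41.1, 42.0 and 44.0 CPM at 2 to 3 d, a change of −0.14 ± 0.07 (adjusted p 0.121, edgeR). The libraries of the 2 ages did not overlap in either allele, and the difference between the alleles was not tested. With 3 pools a group no test for a single distant library was made.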

How the results depend on the processing

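Of the alternatives for the counts of members, 351 gave a count within 1.5 times that reported and 72 did not, and no named member reversed its sign (712 kept their call, 65 lost it and 10 gained it). Counts with Thor[2] in total RNA were 59 to 65 (A10) and 66 to 69 (B14) without 1 pool, and fell to 38 and 35 under the length offset. That offset gave 1 call in total RNA for Lsp2[A10] over Lsp2[B14] at 15 d, for the same contrast with Thor[2] and for the interaction, and 32 for age in Lsp2[A10]. For polysome to total it gave 1 between alleles at 2 to 3 d, 26 for Thor[2] with B14 and 14 for age in Lsp2[B14]. For polysome to monosome it gave 3 for Thor[2] with A10, 2 for age in Lsp2[A10] and 13 in Lsp2[B14].

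Fitting only the groups compared gave 2 calls in total RNA for Lpp[TS]>Rheb over Lpp[TS]>w1118. Between alleles at 2 to 3 d the polysome-to-total count was 8 with DESeq2 and 38 with the replicate block. The block gave 29 and 17 for age in Lsp2[A10] and Lsp2[B14] in that ratio, and in polysome to monosome 1 for Thor[2];Lsp2[A10] over Thor[2];Lsp2[B14], 25 for age in Lsp2[A10] and 52 in Lsp2[B14]. For Thor[2] with A10 the polysome-to-monosome count was 0 with relative log expression factors, library totals or only the groups compared, and 2 with DESeq2, and with B14 it was 0 without a filter. For age in Lsp2[A10] it was 8 with relative log expression factors, 2 with library totals or no filter, 19 with DESeq2 and 9 with only the groups compared, and for age in Lsp2[B14] 9 with library totals.

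Leaving out 1 pool gave, in total RNA, 0 to 38 for Lpp[TS]>Lsp2 over Lpp[TS]>w1118 and for Lpp[TS]>Rheb over Lpp[TS]>Lsp2, 0 to 1 for Thor[2];Lsp2[A10] over Thor[2];Lsp2[B14] and for the interaction, 8 to 15 for age in Lsp2[A10] and 10 to 23 in Lsp2[B14]. In polysome to total it gave 0 to 2 for Lpp[TS]>Lsp2 over Lpp[TS]>w1118, 0 to 9 for Lpp[TS]>Rheb over Lpp[TS]>Lsp2, 0 to 40 between alleles at 2 to 3 d, 23 to 58 for Thor[2] with B14, 3 to 16 for age in Lsp2[A10] and 1 to 8 in Lsp2[B14]. In polysome to monosome it gave 0 to 2 for Thor[2];Lsp2[A10] over Thor[2];Lsp2[B14], 0 to 16 and 0 to 1 for Thor[2] with A10 and B14, 0 to 10 for age in Lsp2[A10] and 11 to 31 in Lsp2[B14]. The cause of these changes was not tested. The total RNA block used the replicate number across genotypes, which names no shared source. Deviations of same-numbered libraries there correlated at −0.51 to 0.30, over 0.1 in 7 of 27 pairs of genotypes, and that block moved no count of members by over 1.5 times. Each Lpp[TS] genotype has 2 pools, and the shallowest fraction held 3.13 M counts.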
